A study of Mus musculus with 52 samples.

Results

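The promoters of 10 genes that encode subunits of variant polycomb repressive complex 1 (variant PRC1) were followed by calibrated ATAC-seq, which measures how open chromatin is by where a transposase can cut it, in mouse embryonic stem cells (mESCs) that lose parts of KDM2A and KDM2B. The genes were Ring1, Rnf2, Rybp, Yaf2, Pcgf1, Bcor, Usp7, Pcgf3, Pcgf6 and L3mbtl2. Members were chosen by symbol: a promoter was taken where its deposited RefSeq identifier carried 1 of these names. This gave 11 of the 20633 promoters in each table, because Bcor had 2.

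Altogether 4 conditional lines were compared, and in every line the untreated and treated cells carried the same floxed alleles and a tamoxifen-inducible CRE recombinase. In Kdm2a/b-JmjC fl/fl cells, loxP sites flank the exons of the JmjC demethylase domain in both Kdm2a and Kdm2b, so that treatment removes the long forms of both proteins. The other 3 lines carry a floxed exon of the ZF-CxxC domain, which binds non-methylated CpG dinucleotides: in both genes (Kdm2a/b-CXXC fl/fl), in Kdm2a alone (Kdm2a-CXXC fl/fl) or in Kdm2b alone (Kdm2b-CXXC fl/fl). Where 4 values are listed for the lines without names, they follow this order, with Kdm2a/b-JmjC first. Cells were left untreated or were given 800 nM 4-hydroxytamoxifen for 96 h, with 4 libraries a group in Kdm2a/b-CXXC and 3 in each of the other 3 lines, 26 ATAC libraries in all. Drosophila SG4 cells were mixed in before lysis, and the mouse reads in 400 bp around each promoter were divided by a size factor from the Drosophila reads; the values are called calibrated reads here. The lines differ in origin: Kdm2a/b-JmjC cells were derived from mice bred to carry the targeted alleles. Kdm2a-CXXC and Kdm2a/b-CXXC were made by CRISPR editing of existing mESCs, Kdm2a/b-CXXC from Kdm2b-CXXC cells. No treated line without floxed alleles was analysed here. Effects of the drug and of CRE thus cannot be told apart from those of the deletions. Promoter intervals do not report the loss of the floxed exons, so the deletions were not checked here. The methods call the libraries biological replicates, and p-values measure the spread between these libraries.

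Variant PRC1 places a single ubiquitin on lysine 119 of histone H2A. Its catalytic core is RING1A (Ring1) or RING1B (Rnf2), bound by RYBP or its relative YAF2 and by 1 PCGF protein that sets which further subunits join. PCGF1 forms PRC1.1 with BCOR, USP7 and KDM2B, whose ZF-CxxC domain brings that complex to CpG islands. PCGF3 forms a complex with casein kinase and AUTS2-family subunits, and PCGF6 forms PRC1.6 with L3MBTL2 and sequence-specific factors such as MGA and E2F6. In mESCs these complexes occupy CpG islands, many of them at silent developmental genes. The comparison asks whether removing a KDM2 domain changed the accessibility of the promoters from which KDM2B's partner subunits are themselves made.

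RefSeq promoter sequences of GRCm38.p6, the same build as mm10, were matched for 7 of the 10 genes, and Pcgf1, Rybp and Yaf2 are given by name and position. The 250 bases before the start site are printed below for 6 promoters, each 5′ to 3′ on its gene's strand, with every CG dinucleotide in capitals, since CG is the sequence that the ZF-CxxC domain binds when it is not methylated. Rnf2 and Pcgf3 are shown as the most accessible promoters, L3mbtl2 as the one with the fewest CG dinucleotides, Ring1 as the paralogue of Rnf2, and Usp7 and upstream Bcor as the least accessible. They lie at chr1:151500992-151501241 (minus strand), chr5:108461009-108461258 (plus), chr15:81663639-81663888 (plus), chr17:34024681-34024930 (minus), chr16:8738343-8738592 (minus) and chrX:12160347-12160596 (minus).

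Rnf2: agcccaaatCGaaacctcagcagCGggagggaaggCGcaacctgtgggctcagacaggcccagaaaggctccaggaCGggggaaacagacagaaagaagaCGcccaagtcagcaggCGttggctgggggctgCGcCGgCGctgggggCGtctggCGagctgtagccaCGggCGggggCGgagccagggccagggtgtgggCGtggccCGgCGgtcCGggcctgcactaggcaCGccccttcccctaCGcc
Pcgf3: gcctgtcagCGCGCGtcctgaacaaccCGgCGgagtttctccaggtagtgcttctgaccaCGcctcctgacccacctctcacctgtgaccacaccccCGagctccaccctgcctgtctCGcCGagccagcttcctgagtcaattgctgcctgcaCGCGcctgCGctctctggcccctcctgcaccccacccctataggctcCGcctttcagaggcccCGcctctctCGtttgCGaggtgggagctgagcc
L3mbtl2: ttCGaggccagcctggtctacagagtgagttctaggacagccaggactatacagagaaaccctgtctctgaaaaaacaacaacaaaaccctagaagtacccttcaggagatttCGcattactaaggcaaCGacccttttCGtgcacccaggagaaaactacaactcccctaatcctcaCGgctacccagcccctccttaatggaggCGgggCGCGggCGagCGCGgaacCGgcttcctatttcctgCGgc
Ring1: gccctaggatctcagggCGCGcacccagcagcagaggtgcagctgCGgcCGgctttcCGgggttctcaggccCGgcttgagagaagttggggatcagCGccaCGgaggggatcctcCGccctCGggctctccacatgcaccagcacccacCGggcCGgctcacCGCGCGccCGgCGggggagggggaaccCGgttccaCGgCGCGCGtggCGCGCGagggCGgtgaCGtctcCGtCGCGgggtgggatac
Usp7: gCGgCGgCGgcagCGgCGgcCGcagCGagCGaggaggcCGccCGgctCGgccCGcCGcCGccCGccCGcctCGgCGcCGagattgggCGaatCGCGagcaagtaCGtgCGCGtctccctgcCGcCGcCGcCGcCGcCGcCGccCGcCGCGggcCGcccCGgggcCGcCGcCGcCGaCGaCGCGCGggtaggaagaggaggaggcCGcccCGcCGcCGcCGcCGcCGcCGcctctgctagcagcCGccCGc
Bcor upstream: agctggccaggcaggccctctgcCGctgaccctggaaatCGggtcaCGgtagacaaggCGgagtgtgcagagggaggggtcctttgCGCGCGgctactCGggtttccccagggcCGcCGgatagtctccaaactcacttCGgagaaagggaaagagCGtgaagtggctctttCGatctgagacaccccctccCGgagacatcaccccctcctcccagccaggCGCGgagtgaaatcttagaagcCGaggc

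Within these windows the motif CG, which reads the same on both strands, occurred 55 times at Usp7, 30 at Ring1, 20 at Rnf2, 17 at upstream Bcor, 16 at Pcgf3 and 13 at L3mbtl2. The median over 32851 RefSeq promoter windows of the same length was 6, and 37.8% of them held 10 or more. Among the printed windows Usp7 stood apart by its GC content, 85.2%, as runs of ccg and cgg triplets, against 54.0% at L3mbtl2. It did not stand apart in the 400 bp intervals, where Yaf2 had 80.25%, Rybp 79.75% and Usp7 79.5%.

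All 11 deposited intervals held an annotated start site and at least part of the first exon (GRCm38/mm10, 1-based). On the strand of rising coordinates were Pcgf1 (NM_197992, chr6:83078190-83078589), Pcgf3 (NM_172716, chr5:108461132-108461531) and L3mbtl2 (NM_001289711, chr15:81663689-81664088). On the other strand were Rnf2 (NM_011277, chr1:151500624-151501023), Ring1 (NM_009066, chr17:34024481-34024880), Rybp (NM_019743, chr6:100287159-100287558), Yaf2 (NM_024189, chr15:93336736-93337135), Usp7 (NM_001003918, chr16:8738143-8738542) and Pcgf6 (NM_027654, chr19:47050646-47051045). The Bcor intervals lay at 2 of the gene's 3 curated starts on chromosome X, upstream (NR_045434, chrX:12160147-12160546) and downstream (NM_029510, chrX:12080354-12080753). The Rnf2 interval sat mostly inside its gene, with 32 bases upstream of the start and 273 in exon 1, its centre 168 bp from the start. At Ring1, 2 microRNA genes that the tables do not list start nearby, Mir219c 332 bp away on the opposite strand and Mir219a-1 412 bp away on the same strand, and reads in the Ring1 interval were not split between them.

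Over the whole table, promoter reads ran from 1.49 to 3.03 M (M, 1000000) per library, with a median promoter of 58 to 108 reads. The mESC marker promoters Pou5f1, Nanog, Sox2, Zfp42, Esrrb (2 starts), Klf4 and Tdgf1 summed to 397 to 510 reads per 1000000 promoter reads (rpm) without treatment and 405 to 535 after it, with median percentiles from 18.4 (an Esrrb start) to 90.4 (Zfp42). The 5 fibroblast markers summed to 70.9 to 119 and 86.3 to 122 rpm, and the 4 primitive endoderm markers to 85.7 to 149 and 86.7 to 145 rpm. Mean calibrated totals went from 1.83 ± 0.0550 M (SD, n = 3) to 1.58 ± 0.106 M in Kdm2a/b-JmjC and from 2.31 ± 0.190 M (SD, n = 3) to 2.04 ± 0.285 M in Kdm2a-CXXC. They went from 1.52 ± 0.0580 M (SD, n = 4) to 1.64 ± 0.303 M in Kdm2a/b-CXXC, and in Kdm2b-CXXC, where libraries of 1 group differed most, from 2.27 ± 0.621 M to 2.43 ± 0.666 M (SD, n = 3).

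The member promoters fell into 2 ranges of accessibility, with 8 in the upper part of each library and 3, Usp7 and both Bcor starts, well below them. Levels are given as rpm, and since every interval is 400 bp long they compare per length. Pcgf3, of the PCGF3 complex, had a median of 112 rpm over the 26 libraries (range 85.3 to 127) and a median percentile of 90.8 among all promoters of a library. Rnf2, which encodes the main H2A ligase of mESCs, followed at 101 rpm (77.3 to 159.8), percentile 86.3, and the other ligase gene, Ring1, had 55.9 rpm (38.4 to 70.5), percentile 61.9. The ranges of the 2 ligase promoters did not overlap.

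Between them lay Pcgf6 and L3mbtl2 of PRC1.6, at 84.4 and 84.2 rpm, then Pcgf1 at 77.9, Rybp at 74.0 and Yaf2 at 60.0 rpm. Downstream Bcor had 23.1 rpm (14.6 to 32.8), Usp7, which encodes a deubiquitylase, 20.8 (10.8 to 32.7) and upstream Bcor 15.6 (10.4 to 28.1). Their median percentiles were 38.9, 36.5 and 32.9. Hence 1 of the 3 PRC1.1 genes here, Pcgf1, sat in the upper range and the other two in the lower.

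**Figure D1:**
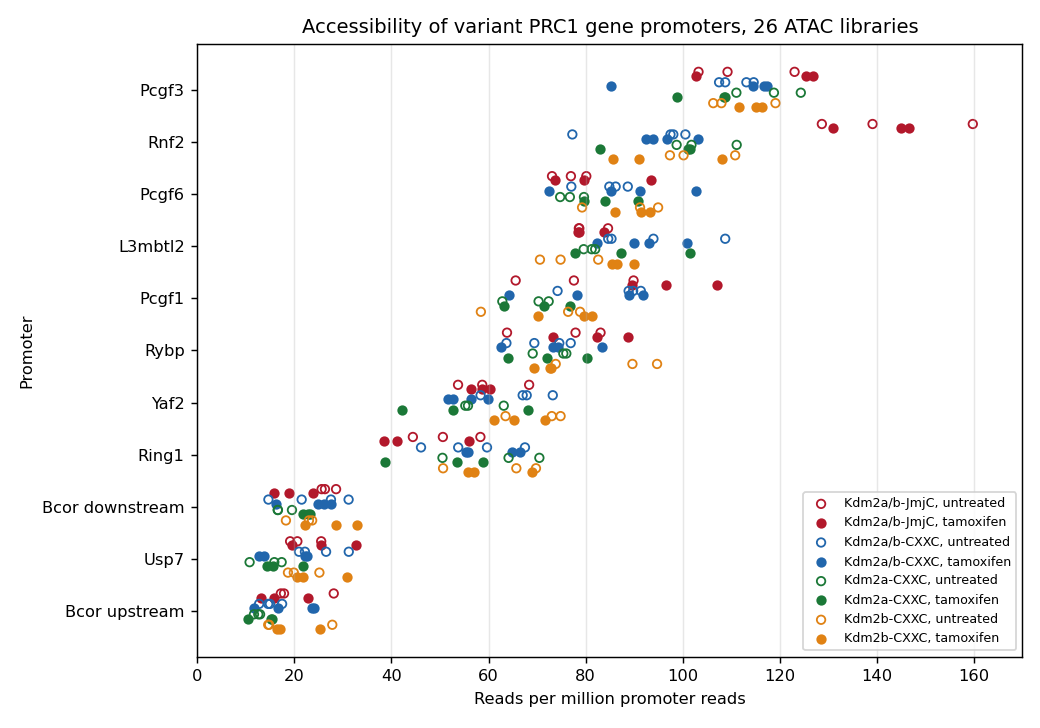
Accessibility of the 11 member promoters in rpm, 1 point per library, grouped by line and treatment. Pcgf3 and Rnf2 are highest, and Usp7 and both Bcor promoters lie below the other 8 in all 26 libraries.

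The gap between the 2 ranges was the firmest feature of the order: all 8 higher promoters exceeded all 3 lower ones in 26 of 26 libraries. Neighbours within a range were less distinct. Pcgf3 exceeded Rnf2 in 19 of 26 libraries and was the highest member in 17, whereas Rnf2 was highest in 7, among them all 6 Kdm2a/b-JmjC libraries. Pcgf6 exceeded L3mbtl2 in 10 of 26, so these 2 PRC1.6 promoters were not ordered by their medians. In untreated cells, L3mbtl2, Pcgf1, Pcgf6, Rybp and Yaf2 each overlapped the next lower promoter in Kdm2a/b-JmjC, and the overlaps ran from L3mbtl2 down to Yaf2 in Kdm2a-CXXC and from Pcgf6 down to Ring1 in Kdm2b-CXXC. In Kdm2a/b-CXXC they ran from Rnf2 to Pcgf6 and from Rybp to Ring1, whereas Pcgf3 overlapped Rnf2 in Kdm2a-CXXC and Kdm2b-CXXC. In all 3 lines with floxed ZF-CxxC exons, Bcor downstream, Usp7 and Bcor upstream could not be separated from their neighbours in this order.

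By line, the group means (± SD, n = 3, or 4 in Kdm2a/b-CXXC) showed how stable each level was on the rpm scale, which removes differences in depth and in calibration. Rybp had 74.9 ± 9.98, 71.2 ± 5.88, 73.5 ± 3.83 and 86.1 ± 10.9 rpm without treatment and 81.5 ± 7.80, 73.4 ± 8.57, 72.1 ± 8.10 and 71.6 ± 1.95 after tamoxifen, and its relative Yaf2 60.3 ± 7.45, 66.6 ± 6.16, 58.0 ± 4.42 and 70.5 ± 6.09 rpm without treatment and 58.4 ± 1.91, 55.2 ± 3.74, 54.3 ± 13.1 and 66.0 ± 5.20 after tamoxifen. The Rybp mean was above the Yaf2 mean in all 8 groups. Pcgf6 had 76.7 ± 3.54, 84.2 ± 5.02, 77.1 ± 2.47 and 88.5 ± 8.18 rpm without treatment and 82.3 ± 10.2, 87.9 ± 12.5, 84.8 ± 5.61 and 90.3 ± 3.79 after tamoxifen, with L3mbtl2 at 80.6 ± 3.44, 93.2 ± 11.2, 80.9 ± 1.21 and 76.0 ± 6.08 rpm without treatment and 80.4 ± 3.00, 91.6 ± 7.69, 88.9 ± 11.9 and 87.3 ± 2.30 after tamoxifen. The higher of these 2 PRC1.6 promoters was L3mbtl2 in 5 of the 8 groups. Pcgf3 stayed between 105 and 118 rpm over the 8 group means, and Pcgf1 between 68.5 and 97.7.

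The low promoters kept their place in every group. Usp7 had 21.8 ± 3.35, 25.2 ± 4.66, 14.7 ± 3.46 and 21.2 ± 3.45 rpm without treatment and 25.9 ± 6.59, 17.8 ± 5.35, 17.3 ± 3.98 and 24.3 ± 5.65 after tamoxifen, with its lowest mean in untreated Kdm2a-CXXC cells. Downstream Bcor had 26.8 ± 1.56, 23.7 ± 7.24, 17.6 ± 1.68 and 21.6 ± 2.95 rpm without treatment and 19.6 ± 4.09, 23.7 ± 5.12, 22.6 ± 0.729 and 27.9 ± 5.33 after tamoxifen, and upstream Bcor 21.1 ± 6.11, 14.9 ± 1.95, 12.4 ± 0.648 and 19.1 ± 7.56 rpm without treatment and 17.3 ± 5.01, 19.0 ± 5.97, 13.6 ± 2.84 and 19.6 ± 4.96 after tamoxifen. The downstream start was the higher of the Bcor pair in 8 of the 8 groups. Ring1 group means ran from 45.2 to 62.0 rpm and stayed above all 3 of these, and Rnf2 means ran from 93.3 to 143.

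The order of accessibility was not the order of CpG content. All 11 intervals were CpG-rich (GC content of at least 50% and observed to expected CpG of at least 0.6), against 54.6% of 20630 promoters. Yaf2 held 72 CG dinucleotides, Rybp 70 and Usp7 68, the most of the 11, against 27 at L3mbtl2 and 31 at Pcgf1 and upstream Bcor alike; the median of all promoters was 24. Set against promoters within 5 CG dinucleotides of its own count, Usp7 was at the 3.17 percentile of 378 promoters, whose median was 57.8 rpm. Downstream Bcor was at 3.18 of 1541 and upstream Bcor at 1.50 of 4140, with medians of 68.8 and 69.0 rpm.

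The other 8 members were spread through the distribution of their CpG-matched promoters. Ring1 was at the 30.5 percentile, Yaf2 at 52.5, Pcgf1 at 58.7 and Pcgf6 at 59.5. L3mbtl2, Rybp, Rnf2 and Pcgf3 were at 69.2, 69.9, 79.1 and 81.2. Usp7, whose printed window is the most CG-dense of the 6, and upstream Bcor, with fewer CG dinucleotides than Rnf2, were thus both near the bottom of their class. These levels were not corrected with the tagmented genomic DNA, which the paper made as a control for the transposase's sequence preference. Both Bcor starts lie on chromosome X and were ranked among promoters of all chromosomes. The part that either has in these ranks was not tested.

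**Figure D2:**
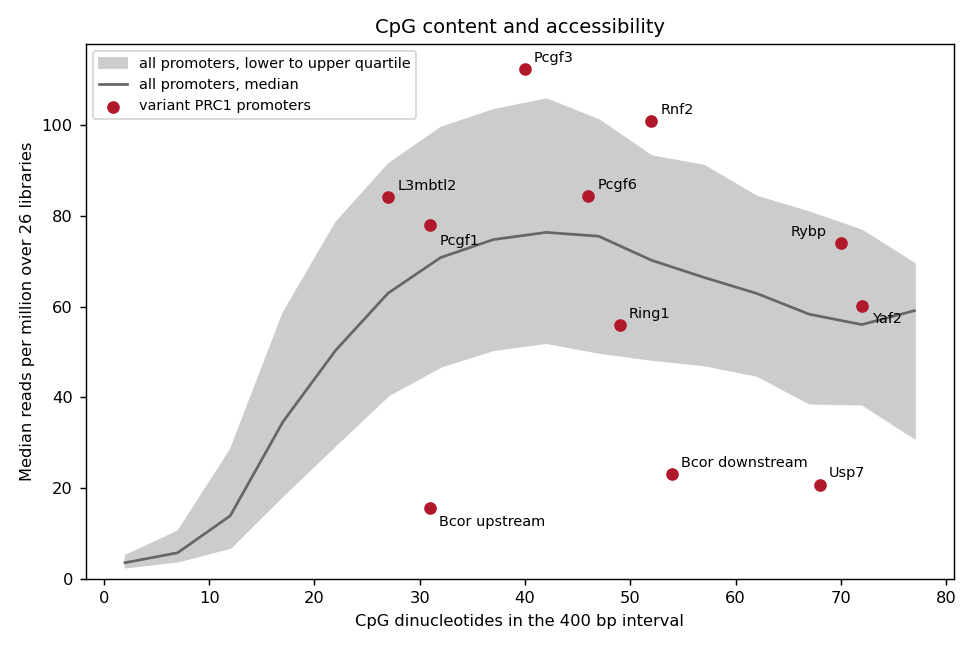
Number of CG dinucleotides in each 400 bp promoter interval (x axis) against its median rpm over the 26 libraries (y axis), for the 11 members over the median and quartiles of all promoters binned by CpG count. Usp7 and both Bcor promoters lie far below the typical level for their CpG count, and Rnf2 and Pcgf3 above it.

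Members differed in depth and in the spread between libraries of a group. Members had 19 to 336 reads per library; the exact Poisson 95% interval was 11.4 to 29.7 reads for the lowest value and 301 to 374 for the highest, which covers counting error only. The coefficient of variation of rpm within a group was 7.90% at L3mbtl2 and 8.14% at Pcgf3, close to the 7.79% and 6.78% expected from counting alone. At Ring1 it was 16.1% against 9.78%, and at upstream Bcor 26.2% against 17.9%. In bulk samples, fewer cells with an open promoter and less opening per cell cannot be told apart.

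No member promoter changed past the test in any line. A promoter counted as called at a Benjamini-Hochberg adjusted p under 0.05 from limma together with a fold change over 1.4, and 0 of 11 members were called in each of the 4 lines, by limma, by edgeR's quasi-likelihood test and by DESeq2 alike. All 11 members passed the filter on low reads in every line. The backgrounds of called promoters were 0.0757% in Kdm2a/b-JmjC (13 of 17174) and 0%, 0% and 0% in the lines with floxed ZF-CxxC exons, where edgeR and DESeq2 also called 0 promoters. At an unadjusted limma p under 0.05, the members numbered 2, 0, 1 and 0 in these lines, against 20.6%, 4.65%, 8.39% and 0.669% of all promoters tested. At that threshold edgeR gave 2, 0, 2 and 0 members and DESeq2 1, 0, 1 and 0. The limma shares are no background for these counts, and the shares by edgeR and DESeq2 are not given here.

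**Figure D3:**
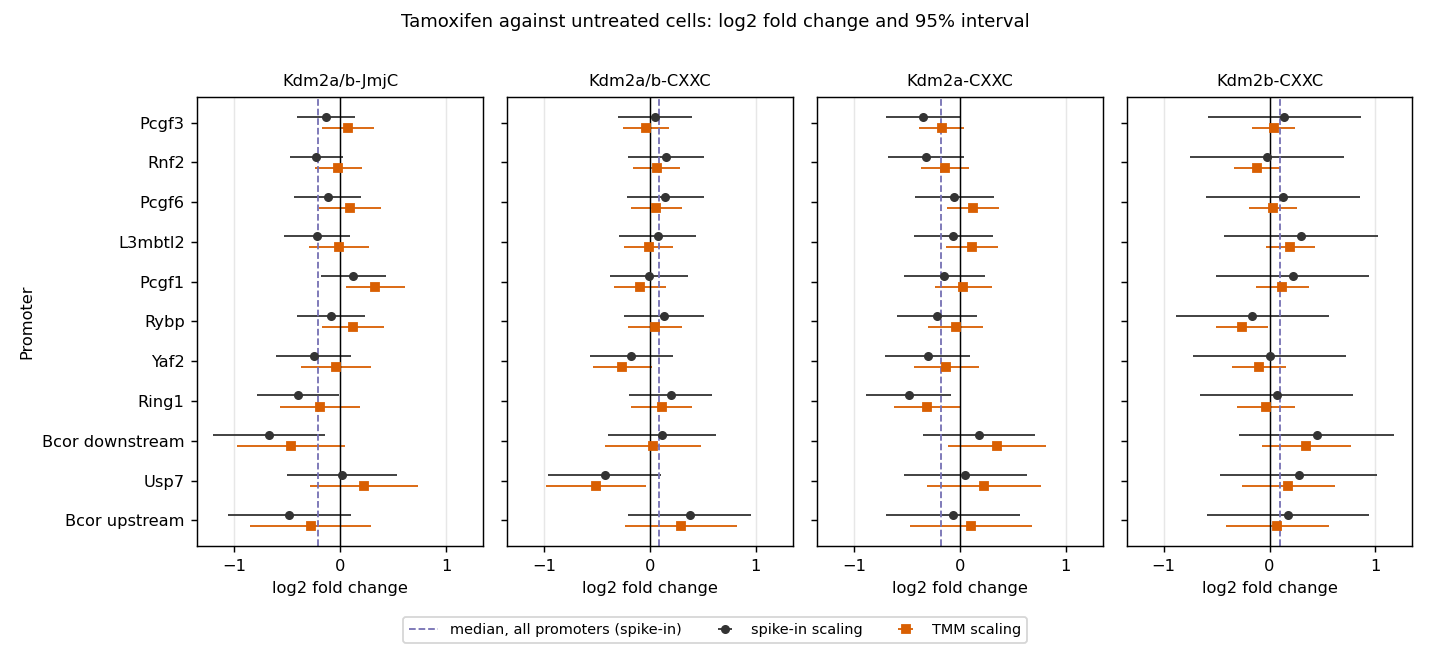
Log2 fold change, tamoxifen minus untreated, for the 11 member promoters in each line, with limma's 95% intervals. Circles are calibrated reads and squares are TMM scaling, described below. The dashed line is the median over all promoters tested, on calibrated reads. On that scale the members scatter around each line's own median. It is below 0 in Kdm2a/b-JmjC and in Kdm2a-CXXC but above 0 in the other 2 lines. None passed the test on either scale.

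The members lay close to the rest of the table. Their median log2 fold change was -0.22, 0.11, -0.15 and 0.14 in the 4 lines, where the medians over all promoters tested were -0.21, 0.087, -0.18 and 0.099. TMM scaling, which sets the typical promoter near no change, moved the medians over all promoters to -0.0027, 0.0012, -0.0029 and 0.00070 and gave member medians of -0.0094, 0.029, 0.032 and 0.040. On the calibrated scale 9, 3, 9 and 2 of the 11 members were below 0, against 83.4%, 32%, 81.2% and 28.9% of all promoters tested. The sign of 3, 2, 4 and 2 members differed between these scalings.

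Leaving out a single library moved these medians by over 1.5 times in each line but Kdm2a/b-JmjC. In Kdm2a/b-CXXC the members' median was 0.046 without untreated replicate 1 and 0.011 without tamoxifen replicate 1, where the median of all promoters was -0.022. Dropping tamoxifen replicate 1 of Kdm2a-CXXC gave -0.034, dropping untreated replicate 3 gave -0.067, and dropping either untreated replicate 1 or tamoxifen replicate 3 gave -0.26. In Kdm2b-CXXC the direction turned, to -0.11 when tamoxifen replicate 1 was dropped and -0.064 when untreated replicate 2 was, and the medians of all promoters turned with it, to -0.11 and -0.070. Dropping untreated replicate 1, tamoxifen replicate 2 or tamoxifen replicate 3 gave 0.36, 0.25 and 0.22.

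In Kdm2a/b-JmjC cells, the lowest fold changes were at Bcor and Ring1, and 3 members had every treated library below every untreated one, Rnf2, L3mbtl2 and downstream Bcor. That separation with lower treated values was seen at 23.2% of all promoters tested. Downstream Bcor, a promoter of the gene for the PRC1.1 scaffold, had 46.3, 49.9 and 51.3 calibrated reads without treatment and 40.6, 23.5 and 29.7 after tamoxifen. Its log2 fold change was -0.67 (95% interval -1.20 to -0.14, limma adjusted p = 0.148), and its unadjusted limma p was 0.0133. Upstream Bcor had 50.8, 32.6 and 32.1 calibrated reads without treatment and 22.4, 23.5 and 35.8 after tamoxifen, and these groups overlapped, with a log2 fold change of -0.48 (95% interval -1.06 to 0.098).

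Both ligase genes were below 0 in this line. Ring1 had 91.5, 111 and 79.7 calibrated reads without treatment and 65.1, 83.0 and 64.5 after tamoxifen, 1 treated library lying within the untreated range. Its log2 fold change was -0.40 (95% interval -0.79 to -0.012, limma adjusted p = 0.230), with an unadjusted limma p of 0.0435; a lower value at that unadjusted threshold was found at 20.3% of all promoters, so the 2 members that reached it, Ring1 and downstream Bcor, were near the background share. Rnf2 had 233, 264 and 287 calibrated reads without treatment and 222, 215 and 229 after tamoxifen. The groups did not overlap, and the log2 fold change was -0.23 (95% interval -0.48 to 0.023, limma adjusted p = 0.289), close to the median of all promoters in this line; under TMM scaling it was -0.017 (95% interval -0.24 to 0.20).

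L3mbtl2, whose product binds nucleosomes in PRC1.6, had 142, 160.5 and 141 calibrated reads without treatment and 133, 124 and 123 after tamoxifen. These groups were separate, with a log2 fold change of -0.22 (95% interval -0.53 to 0.093, limma adjusted p = 0.421). Pcgf6 and Pcgf3 had log2 fold changes of -0.12 and -0.14, Yaf2 -0.25, Rybp -0.088 and Usp7 0.017, all with overlapping groups. Pcgf1, the partner that links KDM2B to the ligase, stood at the other end with 119, 170.4 and 139 calibrated reads without treatment and 182, 143 and 140.2 after tamoxifen. Its groups overlapped and its log2 fold change was 0.12 (95% interval -0.18 to 0.43, limma adjusted p = 0.658); under TMM scaling it was 0.33 (95% interval 0.050 to 0.62), with an unadjusted limma p of 0.0218 and an adjusted p of 0.870. Pcgf1 was the 1 member with an unadjusted p under 0.05 under TMM scaling, where 5.65% of all promoters had one.

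**Figure D4:**
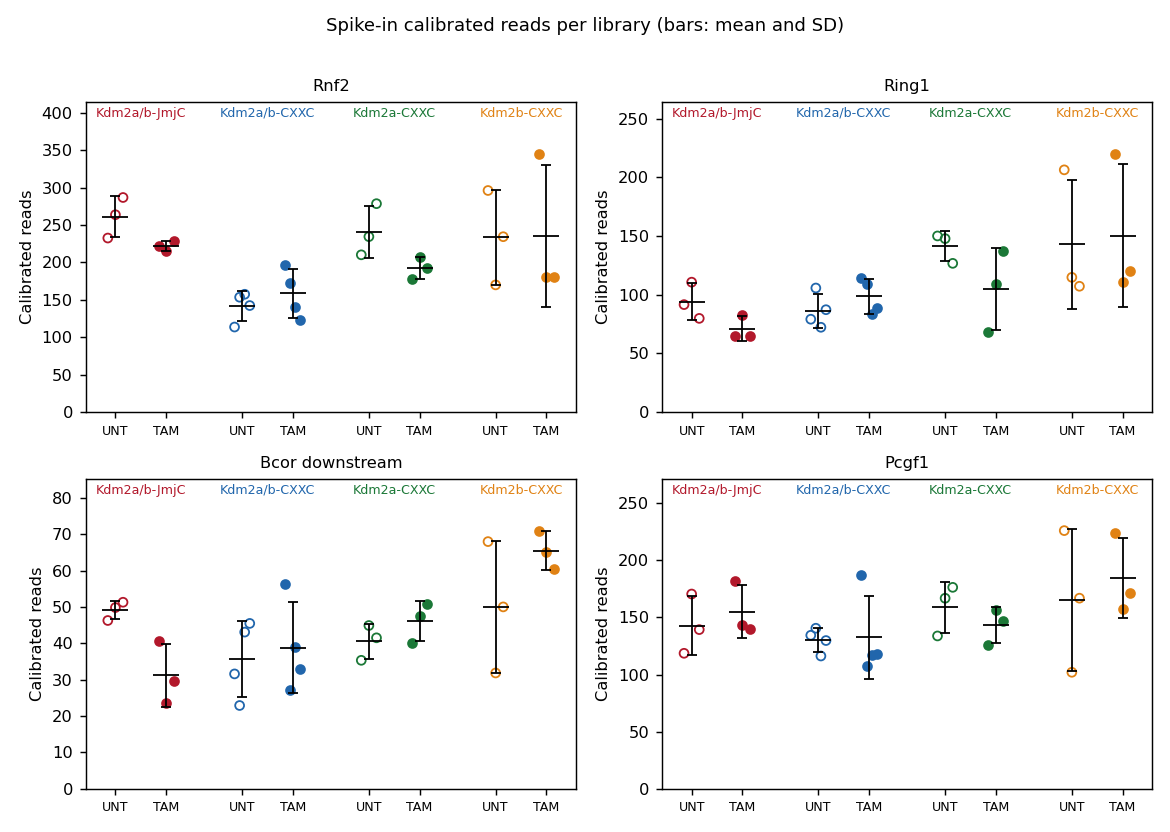
Calibrated reads in every library at Rnf2, Ring1, downstream Bcor and Pcgf1 in each line, with open points for untreated and filled points for tamoxifen-treated libraries and bars for the group mean and SD. Treated libraries are all lower at Rnf2 and downstream Bcor in Kdm2a/b-JmjC, the Ring1 values in Kdm2a-CXXC spread more after treatment, and 1 treated Kdm2a/b-CXXC library stands high at Pcgf1.

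When the ZF-CxxC exon was removed from both genes, in Kdm2a/b-CXXC cells, no member had separate groups, against 2.4% of all promoters tested with separation either way. Pcgf1 had 134, 140.5, 116 and 129.7 calibrated reads without treatment and 187, 108, 117 and 118 after tamoxifen, and 1 treated library lay above all the others. The log2 fold change was -0.0068 (95% interval -0.37 to 0.36, limma adjusted p = 0.999), an interval within 1.4-fold in either direction. Usp7, the deubiquitylase of PRC1.1, had 32.6, 48.8, 32.8 and 38.7 calibrated reads without treatment and 46.2, 22.9, 33.3 and 16.9 after tamoxifen. These overlapped, and the log2 fold change of -0.43 (95% interval -0.96 to 0.11) was the lowest of the members (limma adjusted p = 0.996). Dropping tamoxifen replicate 4 gave -0.20, and dropping tamoxifen replicate 1 gave -0.66. Under TMM scaling Usp7 was at -0.51 (95% interval -0.98 to -0.040), with an unadjusted limma p of 0.0336 and an adjusted p of 0.465, the 1 member below the unadjusted threshold, with a background of 9.72%.

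The ligase promoters of Kdm2a/b-CXXC cells showed no separation either. Rnf2 had 114, 153, 157 and 142 calibrated reads without treatment and 197, 173, 141 and 123 after tamoxifen, a log2 fold change of 0.15 (95% interval -0.21 to 0.51). Ring1 had 79.0, 106, 72.2 and 87.1 calibrated reads without treatment and 114, 109, 83.1 and 88.3 after tamoxifen, a log2 fold change of 0.20 (95% interval -0.20 to 0.59). In both genes the highest library was a treated one and the lowest an untreated one. Downstream and upstream Bcor had log2 fold changes of 0.11 and 0.37, Rybp and Yaf2 0.13 and -0.18, and Pcgf3, Pcgf6 and L3mbtl2 0.048, 0.15 and 0.072. The 95% intervals lay within 1.4-fold either way at 3 members on the calibrated scale and at 8 under TMM scaling.

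Removal of the ZF-CxxC exon of Kdm2a alone was accompanied by separate groups at 2 members, Rnf2 and Pcgf3, both with lower treated values, a pattern found at 13.4% of all promoters tested in that line. Rnf2 had 210.2, 235 and 279 calibrated reads without treatment and 178, 207 and 193 after tamoxifen, with a log2 fold change of -0.32 (95% interval -0.67 to 0.043, limma adjusted p = 0.602). Pcgf3 had 265, 256 and 298 calibrated reads without treatment and 191, 222 and 229.7 after tamoxifen, with a log2 fold change of -0.35 (95% interval -0.70 to 0.0016, limma adjusted p = 0.594). Both were lower than the line's median shift, and under TMM scaling they were -0.14 (95% interval -0.36 to 0.091) and -0.17 (95% interval -0.38 to 0.040).

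Ring1 had the lowest fold change of the members in Kdm2a-CXXC cells, but its groups overlapped, with 150.0, 148 and 127 calibrated reads without treatment and 68.0, 109 and 137 after tamoxifen. The log2 fold change was -0.48 (95% interval -0.88 to -0.082, limma adjusted p = 0.581) and the unadjusted limma p 0.0182, at a threshold that 8% of all promoters passed with lower values. Without tamoxifen replicate 1, its lowest library, the log2 fold change was -0.20. Under TMM scaling no member was below it, against 6.18% of all promoters, and Ring1 was at -0.30 (95% interval -0.62 to 0.0089). Pcgf1 had 134, 167 and 176 calibrated reads without treatment and 126, 157 and 147 after tamoxifen, which overlapped at a log2 fold change of -0.15 (95% interval -0.53 to 0.24). Downstream Bcor was at 0.18, upstream Bcor at -0.067, Usp7 at 0.054, Rybp at -0.22, Yaf2 at -0.30, Pcgf6 at -0.050 and L3mbtl2 at -0.060, none with separate groups.

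Loss of the ZF-CxxC exon of Kdm2b alone was measured least precisely. Calibrated totals differed between libraries of 1 group, as given above, and standard errors of the members ran from 0.367 to 0.390 on the log2 scale against 0.127 to 0.295 in Kdm2a/b-JmjC. No member's 95% interval lay within 1.4-fold either way, and no groups were separate, against 2.58% of all promoters tested. Downstream Bcor had 68.0, 31.9 and 50.04 calibrated reads without treatment and 71.0, 65.1 and 60.4 after tamoxifen. The treated values were within or just above the untreated range, and the log2 fold change was 0.45 (95% interval -0.29 to 1.18, limma adjusted p = 1.000). Rybp, the subunit that stimulates the ligase, had 280.1, 129 and 189.6 calibrated reads without treatment and 233, 144 and 146 after tamoxifen, overlapping at -0.16 (95% interval -0.88 to 0.56).

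Pcgf1 had 226, 102 and 167 calibrated reads without treatment and 224, 158 and 171 after tamoxifen, with a log2 fold change of 0.22 (95% interval -0.50 to 0.94). Ring1 had 206, 115 and 107 calibrated reads without treatment and 220.1, 110.4 and 120.0 after tamoxifen, and Rnf2 296, 169.9 and 234 calibrated reads without treatment and 345, 180.4 and 180.4 after tamoxifen, with log2 fold changes of 0.067 (95% interval -0.65 to 0.79) and -0.023 (95% interval -0.75 to 0.70). At all 3 genes replicate 1 was the highest library of each group, as it was in the calibrated totals of this line. Without untreated replicate 1 the members' median log2 fold change was 0.36, and without tamoxifen replicate 1 it was -0.11, against 0.14 with all libraries. TMM scaling takes out that difference: the intervals of 7 members then lay within 1.4-fold either way, and Rybp was the 1 member with an unadjusted limma p under 0.05 (0.0351, adjusted p = 0.614), at -0.26 (95% interval -0.50 to -0.018), against 7.74% of all promoters. Usp7 was at 0.28, Yaf2 at 0.0020, upstream Bcor at 0.17, and Pcgf3, Pcgf6 and L3mbtl2 at 0.14, 0.13 and 0.30 on the calibrated scale.

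Differences between lines were then tested directly, with an interaction term for every pair of lines in 1 limma fit of the 26 libraries, a test chosen after seeing the data. That fit took a common spread per promoter for all lines. Within lines, standard errors of the members were 0.127 to 0.295 in Kdm2a/b-JmjC and 0.367 to 0.390 in Kdm2b-CXXC. Its intervals may thus be too narrow for pairs with Kdm2b-CXXC. Over 11 promoters and 6 pairs of lines, 66 comparisons in all, none had an adjusted p under 0.05, and the smallest was 0.658. Over all promoters and pairs, 0% had an adjusted p under 0.05. An unadjusted p under 0.05 was found in 2 of the 66, against 4.09% of all promoters over the same pairs. At downstream Bcor, the log2 fold change of Kdm2a/b-JmjC minus that of Kdm2b-CXXC was -1.12 (95% interval -1.97 to -0.26, limma adjusted p = 0.774), with an unadjusted p of 0.0102. At Ring1, Kdm2a/b-CXXC minus Kdm2a-CXXC was 0.68 (95% interval 0.038 to 1.32, limma adjusted p = 0.779), with an unadjusted p of 0.0378.

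Before any treatment the lines already differed at Rnf2. Untreated Kdm2a/b-JmjC cells had 129, 139 and 159.8 rpm in their 3 libraries, a mean of 143 ± 15.8 (SD, n = 3), against a mean of 100.01 over the other 3 lines. The other untreated libraries ran from 77.3 to 111 rpm and did not overlap with them. The treated Kdm2a/b-JmjC libraries had 131, 145 and 147 rpm. The log2 ratio to the other lines was 0.51 untreated and 0.56 treated. The median ratio of the 1018 promoters on chromosome 1 was 0.36 and 0.38, and Rnf2 was at percentile 71.6 and 77.3 of its chromosome. Most of chromosome 1 was therefore higher in rpm in this line, by less than Rnf2, and the part this has in the Rnf2 level was not tested.

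On chromosome X, upstream Bcor in Kdm2a/b-JmjC was above the other lines by 0.43 (log2) without treatment and level with them after it (-0.0075). Downstream Bcor went from 0.35 to -0.33. The medians of 515 chromosome X promoters were 0.25 and 0.39. Without treatment both Bcor starts were above the chromosome median, upstream Bcor at percentile 63.9 and downstream Bcor at 56.3. After treatment both were below it, at 17.3 and 3.69. The untreated mean of upstream Bcor leaned on 1 library, with 28.1, 17.2 and 17.9 rpm in replicates 1 to 3. The ratios between lines rest on tables calibrated apart and are a description, with no test.

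**Figure D5:**
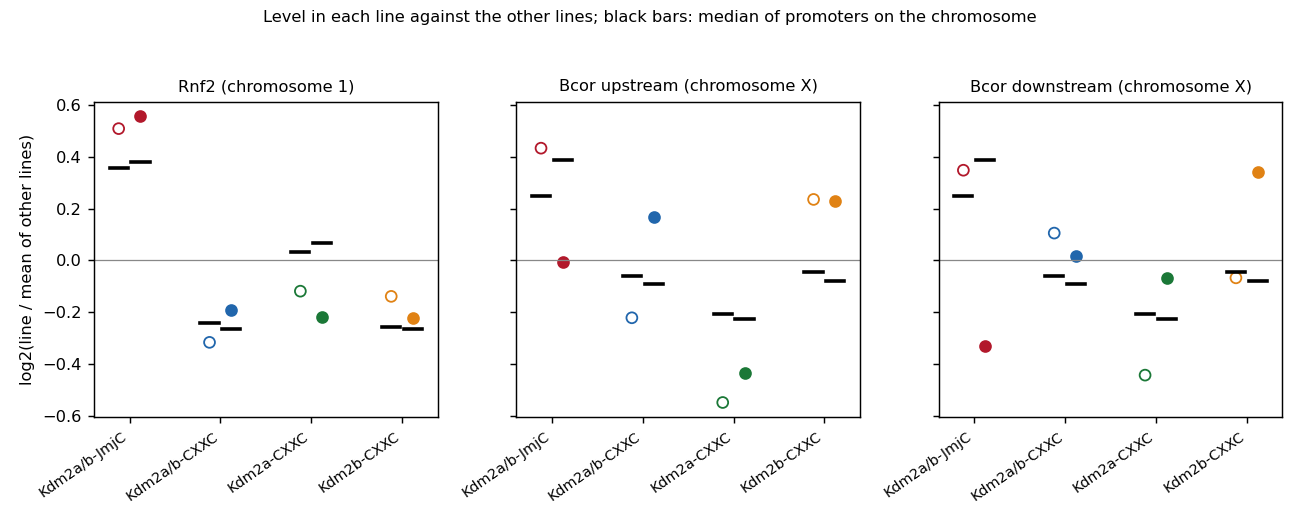
Log2 ratio of mean rpm in a line to the mean of the other 3 lines at Rnf2, upstream Bcor and downstream Bcor, beside the median ratio of promoters on the same chromosome. Rnf2 and the chromosome 1 median are both above 0 in Kdm2a/b-JmjC.

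The remaining genes of the family were tested in the same fits. Of 19 other variant PRC1 genes, 18 had 20 promoters in the tables (Auts2 was not analysed here), and 19, 18, 19 and 20 of these were tested in the 4 lines. None was called by limma or DESeq2 and 1 by edgeR, in Kdm2a/b-JmjC with lower treated values. With limma, 8, 0, 0 and 0 had an unadjusted p under 0.05, all with lower treated values, against 20.3% of all promoters in Kdm2a/b-JmjC. Their median log2 fold changes were -0.27, 0.11, -0.23 and 0.12, beside -0.21, 0.087, -0.18 and 0.099 over all promoters. In Kdm2a/b-JmjC the lowest was Fbrsl1 (NM_028596), an AUTS2 relative, at -0.79 (SE 0.216, limma adjusted p = 0.0610, unadjusted p of 0.000340), and the highest Wdr5, at 0.23.

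Of the 2 Kdm2b starts, the less accessible one (NM_001003953, 28.4 mean calibrated reads in untreated Kdm2a-CXXC cells) was the highest of that list in Kdm2a/b-CXXC (0.28) and Kdm2a-CXXC (0.34) and the lowest in Kdm2b-CXXC (-0.16). The other start (NM_013910, 199 reads) was at 0.11, -0.26 and -0.038, of opposite sign in Kdm2a-CXXC. The opposite ends were Bcorl1, a Bcor relative, in Kdm2a/b-CXXC (-0.17), Fbrs in Kdm2a-CXXC (-0.55) and E2f6 in Kdm2b-CXXC (0.37), all log2 fold changes that did not pass the test. Fbrs had few reads in Kdm2a-CXXC, a mean of 11.8 calibrated reads untreated and 8.20 treated, and the SE of its log2 fold change was 0.547. Canonical PRC1, which holds CBX and PHC proteins in place of RYBP, gave 12 promoters for 10 of 11 genes (Cbx6 was not analysed here), 11 tested in each line and 0 called by limma, edgeR or DESeq2. With an unadjusted limma p under 0.05 and lower treated values there were 7, 0, 1 and 0, where Kdm2a/b-JmjC had 20.3% and Kdm2a-CXXC 8% of all promoters. The medians were -0.34, 0.063, -0.13 and 0.11, beside -0.21, 0.087, -0.18 and 0.099 over all promoters. The lowest were Phc2 (NM_001195083) in Kdm2a/b-JmjC at -0.44, Pcgf2 in Kdm2a/b-CXXC at -0.23, Phc1 in Kdm2a-CXXC at -0.46 and Scmh1 in Kdm2b-CXXC at -0.056.

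Across the 26 libraries, the promoters whose log2(rpm + 1) was most correlated with Rnf2 among 16030 promoters were Gnl3l on chromosome X (r = 0.87), Tpr on chromosome 1 (r = 0.87) and Pdk3 on chromosome X (r = 0.86). For Pcgf1 they were Gpr26 on chromosome 7 (r = 0.69), Sema5a on chromosome 15 (r = 0.68) and Drp2 on chromosome X (r = 0.67). The points share lines and library depth, and the correlations are a description.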

How the data were processed

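The series holds 52 libraries, 26 of ATAC and 26 of genomic DNA, and only the ATAC libraries were analysed here. The authors aligned reads with Bowtie 2 to joined mm10 and dm6 genomes, dropped multi-mapping, duplicate, blacklisted and mitochondrial reads, and counted mouse reads in 400 bp promoter intervals. Each deposited column is a signal, these reads divided by a Drosophila size factor that the genomic DNA corrected for the mixing ratio. Deposited fold changes and p-values were not used. Whole reads were recovered for 100% of values within 0.05 of a read, with size factors of 0.718 to 1.41 and a depth of 1.49 to 3.03 M promoter reads per library, which leaves a wide counting error at members with few reads.

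Groups came from the sample labels. Within each line, treated and untreated libraries were compared by limma 3.58.1 (R 4.3.3), two-sided and with trend = TRUE. It was run on the log2 of calibrated reads with a pseudocount of 1, for promoters that filterByExpr of edgeR kept given the recovered reads, with Benjamini-Hochberg adjustment over all promoters tested. Fold changes on this scale understate changes at low values. The call needed a fold change over 1.4 as well as an adjusted p under 0.05. Alternatives were TMM and median-of-ratios scaling, pseudocounts of 0.5 and 5, no filter, a replicate block, edgeR 4.0.16 and DESeq2 1.42.0 on the recovered reads, and leaving out each library. The interaction between lines was added after seeing the data. The main fit, TMM scaling, edgeR and DESeq2 were first tested on simulated data that held planted changes. The other alternatives and the interaction fit were not. Replicate numbers are shared between treated and untreated libraries, but the labels give no common batch or day, and the main fit used no block.

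All promoters of the 10 genes are named. From the lists of other variant and canonical PRC1 subunits, the highest and lowest promoter of a line may be named, and any called. For likeness, Pearson's r of log2(rpm + 1) was taken over promoters past the filter in every line. Symbols were matched for 99.1% of the RefSeq identifiers, and GC and CpG content were read from GRCm38.p6. Some values of the marker and canonical PRC1 lists are not reported here. The members and lists were chosen with earlier results of these data known.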

Additional observations from a re-analysis of the deposited data

Results flagged for a closer look

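In 1 of 22 groups of 4 libraries, all from the Kdm2a/b-CXXC line, a library stood far from the others by Dixon's 95% criterion: Pcgf1 after tamoxifen, where replicate 1 had 186.9 calibrated reads, the nearest other library 118 and the farthest 108. The gap was 0.871 of the range. Replicate 1 also had the highest calibrated total of that group, 2.04 M against 1.68, 1.50 and 1.33 M. In rpm, Pcgf1 had 91.8 in replicate 1 and 64.2, 78.2 and 88.9 in the others, so the gap was one of calibrated reads. Chance flags about 1 in 20 groups. Without this library the log2 fold change of Pcgf1 was -0.18, against -0.0068 with it, and neither passed the test.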

How the results depend on the processing

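No member was called in any line under any alternative run, and the lowest adjusted p of a member over all of them was 0.0560, at downstream Bcor in Kdm2a/b-JmjC (0.0677 at Ring1 in Kdm2a-CXXC). Member fold changes kept their sign in 326 of the alternatives other than leaving out a library and turned in 26, and kept it in 249 and turned in 37 where a library was left out, counting each member, line and alternative once; the cause was not tested. Depth limits Usp7 and both Bcor promoters most, with 19 to 74 reads per library.

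In Kdm2a/b-JmjC, 13 promoters were called, against 0 under TMM or median-of-ratios scaling, 71 with a pseudocount of 5 and 114 by edgeR. The count ran from 0 to 607 with a library left out: leaving out untreated replicate 1 or 2 gave 0, untreated replicate 3 gave 59, tamoxifen replicate 1 gave 607 and tamoxifen replicate 3 gave 3. The members' median log2 fold change there was -0.0094 under TMM and -0.0073 under median-of-ratios scaling. In Kdm2a/b-CXXC, 17 promoters were called under either scaling, and 0 to 8 with a library left out (5 when tamoxifen replicate 1 and 8 when tamoxifen replicate 4 was dropped). Dropping 1 library gave 0 to 43 in Kdm2a-CXXC (43 when it was tamoxifen replicate 3), and in Kdm2b-CXXC it was 1 under either scaling.

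With the replicate number as a block, 62, 0, 188 and 5 promoters were called in the 4 lines, in the order used above, and no member was called. An unadjusted limma p under 0.05 was found under the block at 2, 0, 3 and 2 of the 11 members, against 20.6%, 4.47%, 22% and 9.96% of all promoters tested. Deviations of libraries with the same number correlated across promoters at no more than 0.0725, 0.0360, 0.0435 and 0.0062. In all, 6 of 6, 4 of 8, 4 of 6 and 2 of 6 libraries correlated best with their own number. A shift shared by all promoters of a library drops out of these correlations, so they cannot show whether calibration followed the number. By number, calibrated totals were 2.96, 1.75 and 2.12 M untreated and 3.19, 1.98 and 2.11 M treated in Kdm2b-CXXC. In Kdm2a-CXXC they were 2.13, 2.30 and 2.51 M and 1.76, 2.04 and 2.33 M. The order was the same in both groups of these lines, unlike in Kdm2a/b-JmjC and Kdm2a/b-CXXC. Whether the numbers pair the samples was not settled.

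Signs that turned under TMM and median-of-ratios scaling (log2 fold changes, TMM first) were those of Pcgf6 (0.090 and 0.092), Pcgf3 (0.074 and 0.076) and Rybp (0.12 and 0.12) in Kdm2a/b-JmjC. They were those of L3mbtl2 (-0.014 and -0.013) and Pcgf3 (-0.038 and -0.038) in Kdm2a/b-CXXC, where Pcgf1 turned in edgeR (0.017) and DESeq2 (0.018). In Kdm2a-CXXC they were those of L3mbtl2 (0.12 and 0.12), Pcgf6 (0.13 and 0.13), Pcgf1 (0.032 and 0.034) and upstream Bcor (0.11 and 0.11). In Kdm2b-CXXC they were those of Yaf2 (-0.097 and -0.099) and Ring1 (-0.032 and -0.034), and Rnf2 turned in edgeR (0.0088) and DESeq2 (0.0090).

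With 1 library left out, signs turned within these ranges. In Kdm2a/b-JmjC they were -0.12 to 0.15 for Usp7, -0.23 to 0.0065 for Pcgf3, -0.21 to 0.029 for Rybp and -0.0016 to 0.26 for Pcgf1. In Kdm2a/b-CXXC they were -0.092 to 0.19 for Pcgf3, -0.18 to 0.080 for Pcgf1 and -0.077 to 0.26 for downstream Bcor. In Kdm2a-CXXC they were -0.26 to 0.13 for L3mbtl2, -0.22 to 0.27 for Usp7, -0.11 to 0.0029 for Pcgf6 and -0.16 to 0.021 for upstream Bcor. In Kdm2b-CXXC they were -0.33 to 0.17 for Rnf2, -0.27 to 0.25 for Yaf2, -0.24 to 0.36 for Ring1, -0.11 to 0.36 for Pcgf6, -0.064 to 0.33 for Pcgf3, -0.44 to 0.12 for Rybp, -0.090 to 0.48 for Pcgf1 and -0.23 to 0.44 for upstream Bcor.

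Leaving out 1 library also moved values by over 1.5 times without a change of sign. In Kdm2a/b-JmjC they ran -0.34 to -0.13 for Yaf2, -0.21 to -0.055 for Pcgf6 and -0.69 to -0.27 for upstream Bcor. In Kdm2a/b-CXXC they ran 0.036 to 0.26 for Rnf2, 0.011 to 0.13 for L3mbtl2, -0.30 to -0.11 for Yaf2, -0.66 to -0.20 for Usp7, 0.12 to 0.30 for Ring1 and 0.014 to 0.33 for Pcgf6. For Kdm2a-CXXC cells they ran -0.41 to -0.21 for Rnf2, -0.58 to -0.034 for Yaf2, -0.70 to -0.20 for Ring1, -0.40 to -0.033 for Rybp, -0.26 to -0.055 for Pcgf1 and 0.085 to 0.27 for downstream Bcor. For Kdm2b-CXXC cells they ran 0.074 to 0.49 for L3mbtl2, 0.16 to 0.44 for Usp7 and 0.16 to 0.70 for downstream Bcor.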
